A study of Homo sapiens with 8 samples.

Results

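Human genes for tRNA charging, for the synthesis of non-essential amino acids and for the cellular response to amino acid shortage were followed in human embryonic stem cells (hESCs) grown with or without basic FGF (bFGF, FGF2) and interleukin-11 (IL-11). The 39 genes were chosen by name, as 19 cytosolic aminoacyl-tRNA synthetases and 20 genes for amino acid enzymes, transporters and the factors of the response. The choice was made with earlier results of these data known. All 39 were on the array, with 47 probes among 24526, and 34 of them were among the 9269 genes that could be tested. RNA was hybridised to 8 Illumina human-8 BeadChip arrays, 2 for each of 4 conditions: no added cytokine (−bFGF), +bFGF at 24 ng/ml, +IL-11 at 10 ng/ml, and +IL-11+bFGF with both. All cells were grown on matrigel in N2B27, a defined medium, and treatment lasted 5 days. The sample labels name the line H1 and the paper names H9 for the arrays, both established hESC lines, so which of them was profiled is not settled here. Whether the replicate arrays represent different cultures is stated nowhere, and the p-values accordingly reflect array-to-array spread that may be technical.

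Aminoacyl-tRNA synthetases attach each amino acid to its tRNA and so feed the ribosome. When charged tRNA runs short, the kinase GCN2 phosphorylates the initiation factor eIF2, general translation falls, and translation of the transcription factor ATF4 is favoured. ATF4 binds C/EBP-ATF response elements, mostly as a dimer with a C/EBP protein, and induces synthetases, asparagine synthetase, serine and glycine enzymes, amino acid transporters and further factors such as CHOP (DDIT3) and TRIB3. Part of this control acts on translation and on protein, which an mRNA array does not read.

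The C/EBP-ATF response element was searched, as TGATGNAA on both strands, in the 300-base windows that RefSeq (GRCh38.p14) gives around annotated gene starts, 250 bases before and 50 after. A window was at hand for 32 of the 39 genes, and 10 of these held the motif (31.2%): AARS1, ASNS, CARS1, CHAC1, GARS1, IARS1, MARS1, NARS1, SLC3A2 and TARS1. Among all 27305 genes with a window the share was 4.46%, and among the 7702 tested genes with a window it was 2.67%. Counted by window, 10 of the 49 windows of these genes held it (20.4%), against 3.62% of all 35116 windows. The 16 synthetase genes with a window held it in 7 cases (43.8%), the other 16 in 3 (18.8%). The letters are shown for 5 genes because 3 of them (AARS1, NARS1 and TARS1) passed a test below and the other 2, ASNS and MARS1, did not. Each line gives the strand of the gene from 5′ to 3′, with the matched 8 bases in capitals and 10 bases on either side.
AARS1: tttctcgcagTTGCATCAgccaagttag
NARS1: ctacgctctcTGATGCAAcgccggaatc
TARS1: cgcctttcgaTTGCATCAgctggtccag
ASNS: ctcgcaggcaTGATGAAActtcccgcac
MARS1: ccggttccggTTGCATCAgcgagggatt
The stretches lie at chr16:70289676-70289703 on the minus strand (AARS1), chr18:57621805-57621832 minus (NARS1), chr5:33440957-33440984 plus (TARS1), chr7:97872459-97872486 minus (ASNS) and chr12:57488054-57488081 plus (MARS1). The match began 187 bases before the annotated start in AARS1, 68 before it in ASNS and 4 before it in MARS1, and 14 bases after it in NARS1 and 2 after it in TARS1. A match of letters is a description of the window, not a measured binding site.

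The 34 tested genes were detected (the authors' detection p-value under 0.01) on all 8 arrays. The 5 others were close to background. FARSB (a subunit of phenylalanyl-tRNA synthetase), CHAC1 (which degrades glutathione), SLC7A11 (the cystine transporter) and PYCR1 (the last step of proline synthesis) were detected on no array. Their intensities before normalisation lay between 70.0 and 136.7, against a lowest detected intensity of 125.6 to 141.8 per array. SESN2, a stress-induced inhibitor of mTORC1, lay between 112.3 and 156.6 and was detected on 2 arrays, −bFGF replicate 2 and +IL-11+bFGF replicate 2. No statement on the response of these 5 genes can be made. All values below are normalised intensities, and since each probe binds with its own strength they are compared between arrays and not between genes.

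Markers of cell identity moved with bFGF, read as sums to which the brightest probes add most. Summed over 7 markers of undifferentiated stem cells (among them POU5F1, NANOG and SOX2), the intensity ran from 29524 to 31118 on the 4 arrays without bFGF and from 35568 to 40510 on the 4 arrays with it. POU5F1 (OCT3/4), NANOG, DNMT3B and DPPA4 were higher with bFGF, LIN28A was lower, and SOX2 and ZFP42 were not called (averaged bFGF effect, limma adjusted p = 0.772 and 0.693). For 6 neural crest and sensory neuron genes the sum was 4155 to 5488 without bFGF and 1240 to 1882 with it, and for 6 neuroectoderm genes 1760 to 1825 against 382 to 710. Of the 12 genes in these lists 7 were tested and all 7 were lower with bFGF. SOX10, TFAP2A and DACH1 were detected on all 8 arrays, but FOXD3 on 4, POU4F1 and LMX1A on 5 and PAX6 on 6. A test needed detection on both arrays of a condition. The latter genes met this through the conditions without bFGF, so the filter itself favoured their direction. PAX3 was detected on 1 array and not tested. NGFR, SOX1, ZIC1 and OTX1 were detected on no array. The 8 markers of fibroblast-like support cells summed to 25121 to 32282 without bFGF and 19349 to 24323 with it, LUM and POSTN being detected on no array. Within that list THY1 was higher with bFGF (averaged log2 1.90 ± 0.09, limma adjusted p = 1.83e-06), against the direction of the sum, while COL1A1, COL1A2, COL3A1 and DCN were lower and LOX was not called. In bulk RNA, fewer cells of a type and less RNA per cell cannot be told apart, and the part of these shifts in the results below was not tested.

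The first comparison asked what bFGF did in the absence of IL-11. Of the 34 tested genes, 3 were higher in +bFGF than in −bFGF (8.82%), namely SHMT2, MTHFD2 and CEBPB, and 1 was lower (2.94%), SLC7A5. Over all 9269 genes, limma called 7.33% higher and 7.96% lower at an adjusted p under 0.05, so the share called higher was near that of all genes and the share called lower was below it. The median log2 fold change of the 34 genes was 0.14 and that of all genes -0.02, and 27 of the 34 values were above 0. Their standard errors ran from 0.07 to 0.35 with a median of 0.11. In simulated data with 2 arrays per condition, 200 of the 9269 genes were changed. This comparison then recovered 40.9% of genes with a 1.5-fold change and 79.0% of those with a 2-fold change. In the data 1417 genes were called, so recovery there may differ from the simulated one. Changes of the size seen here can still be missed. The calls depended on single arrays. Without +bFGF replicate 1 no gene of the 34 was called (adjusted p = 0.0572 for SHMT2 and 0.053 for SLC7A5), while the count over all genes fell from 1417 to 617. Without +bFGF replicate 2 only SLC7A5 was called, without −bFGF replicate 2 only SHMT2 and SLC7A5, and without −bFGF replicate 1 the count was 7.

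The second comparison asked the same in the presence of IL-11 and used the other 4 arrays. Between +IL-11+bFGF and +IL-11, 3 of the 34 were higher (8.82%), namely TARS1, SHMT2 and CEBPB, and SLC7A5 was lower (2.94%), against 5.63% higher and 5.67% lower among all genes. The median log2 fold change was 0.10, with 25 of 34 above 0. SHMT2 and CEBPB were thus higher and SLC7A5 lower in 2 comparisons that share no array, although all 8 arrays share the estimate of spread. The share of all genes called alike in both was not counted, so no excess over it can be read. Of the 34 genes, 23 had a log2 fold change above 0 in both states of IL-11, 5 had one below 0 in both, and 6 differed in sign. Of all 9269 genes, 4314 were above 0 in the first comparison and 4613 in the second, and those above 0 in both were not counted. Here too single arrays counted: without +IL-11 replicate 1 or without +IL-11+bFGF replicate 1 only SLC7A5 was called, and without +IL-11 replicate 2 only SLC7A5 and TARS1.

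**Figure D1:**
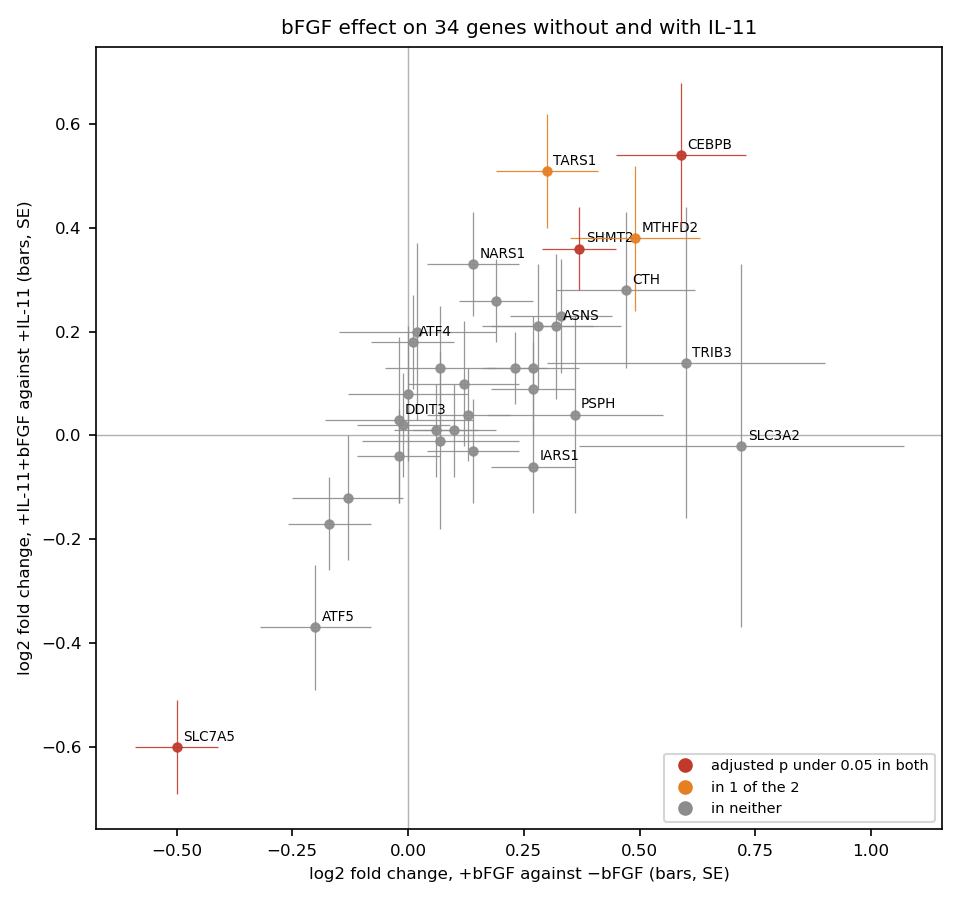
Log2 fold change with bFGF of the 34 tested genes, without IL-11 (horizontal axis) and with IL-11 (vertical axis); points are genes, bars are standard errors from the limma fit, and colour gives the number of comparisons with an adjusted p under 0.05. SHMT2 and CEBPB sit at the upper right and SLC7A5 at the lower left at -0.50 and -0.60, while SLC3A2 and TRIB3, with the longest bars, are displaced mainly along the horizontal axis.

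Averaged over both states of IL-11, which sets the 4 arrays with bFGF against the 4 without and therefore reuses the arrays of both comparisons, 9 of the 34 genes were higher with bFGF (26.5%) and 2 were lower (5.88%). The shares among all genes were 13.4% and 14.5%. The higher genes were AARS1, NARS1, TARS1, YARS1, PHGDH, SHMT2, MTHFD2, CTH and CEBPB, and the lower were ATF5 and SLC7A5. The median was 0.11 against -0.01 for all genes, and 29 of 34 values were above 0. No averaged change reached 1.5-fold, the largest being 0.56 on the log2 scale. For 9 genes every array with bFGF read higher than every array without (AARS1, KARS1, TARS1, YARS1, PHGDH, SHMT2, MTHFD2, CTH and CEBPB), an arrangement found in 14.7% of all genes. For QARS1 and SLC7A5 every array with bFGF read lower, which 16.1% of all genes did. Leaving out 1 array moved the number of the 34 called from 11 to between 6 and 13. The lowest count, 6, came when replicate 1 of either +IL-11 or +IL-11+bFGF was left out, and it was 7 without −bFGF replicate 2, +bFGF replicate 1 or +IL-11 replicate 2. SHMT2, MTHFD2, CEBPB, TARS1 and SLC7A5 were called in each of the 8 fits that left out 1 array.

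**Figure D2:**
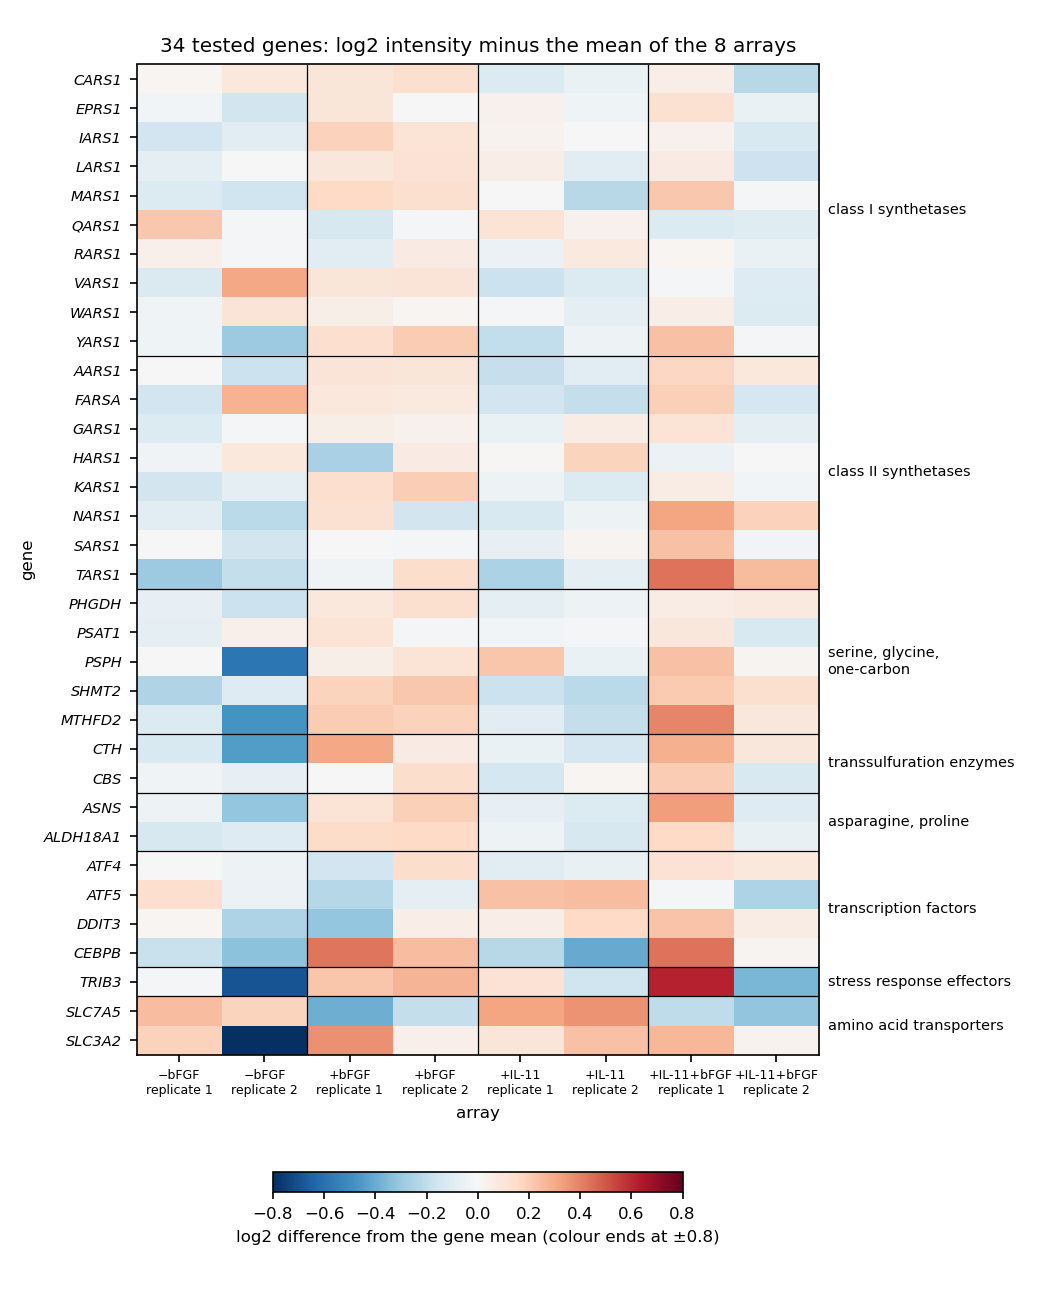
Log2 normalised intensity of each tested gene on each array, minus the gene's mean over the 8 arrays, with genes grouped by role (rows) and arrays by condition (columns); colour runs from -0.8 to 0.8 and is clipped beyond. The SHMT2, MTHFD2 and CEBPB rows are redder on the 4 arrays with bFGF than on the 4 without, the SLC7A5 row is bluer there, and −bFGF replicate 2 is the darkest blue for SLC3A2, TRIB3 and PSPH.

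Among the transcription factors, ATF4, the centre of the response, showed no called change in its mRNA. ATF4 read 13886 and 13435 on the −bFGF arrays, 12415 and 15266 on the +bFGF arrays, 13000 and 13244 on the +IL-11 arrays, and 14963 and 14677 on the +IL-11+bFGF arrays. The +bFGF arrays enclosed the −bFGF values, while with IL-11 both arrays with bFGF were above both without. The log2 fold change was 0.01 ± 0.09 (SE, n = 2 arrays per condition, limma adjusted p = 0.948) without IL-11, with a 95% interval of -0.20 to 0.22, and 0.18 ± 0.09 (adjusted p = 0.284) with it. The 2 dimmer ATF4 probes gave averaged values of 0.18 ± 0.12 and 0.46 ± 0.24, neither called.

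DDIT3 encodes CHOP, a C/EBP-family factor induced when the stress persists. DDIT3 read 250 and 208 in −bFGF, 199 and 256 in +bFGF, 256 and 276 in +IL-11, and 289 and 257 in +IL-11+bFGF. All conditions overlapped their bFGF counterpart, and the differences of -0.02 ± 0.16 (adjusted p = 0.951) and 0.03 ± 0.16 (adjusted p = 0.930) were smaller than their errors.

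CEBPB, a C/EBP factor that can bind the same element as a partner of ATF4, had the highest averaged value of the 34. CEBPB read 1426 and 1290 in −bFGF, 2177 and 1919 in +bFGF, 1388 and 1221 in +IL-11, and 2180 and 1640 in +IL-11+bFGF. Every array with bFGF was above every array without, and +IL-11+bFGF replicate 2 was the lowest of the 4. CEBPB rose 1.51-fold without IL-11 (log2 0.59 ± 0.14, adjusted p = 0.0223) and 1.45-fold with it (0.54 ± 0.14, adjusted p = 0.0373). In the second state the call was lost without +IL-11+bFGF replicate 1 (log2 0.33, adjusted p = 0.254). ATF5, an ATF4-related factor that is itself controlled through eIF2, went the other way. It read 861 and 759 in −bFGF against 669 and 746 in +bFGF, and 922 and 933 in +IL-11 against 776 and 660 in +IL-11+bFGF. The groups did not overlap within either state of IL-11, and only the averaged difference was called (-0.28 ± 0.08, adjusted p = 0.0328). With median scaling in place of quantile normalisation it was not (adjusted p = 0.0592).

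**Figure D3:**
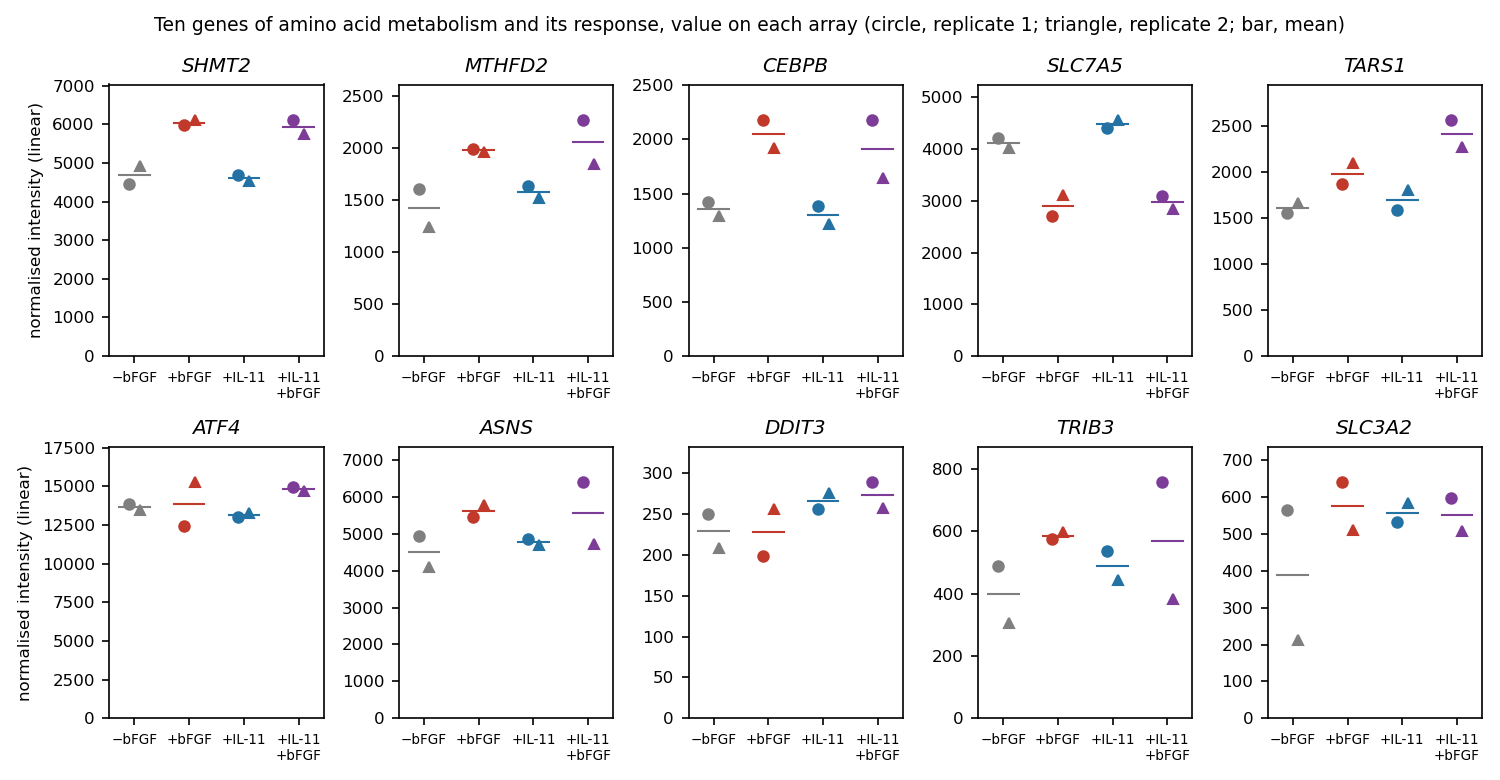
Normalised intensity (linear scale from 0) of 10 genes on each of the 8 arrays by condition; circles are replicate 1, triangles replicate 2 and bars the mean of the 2. SHMT2, MTHFD2, CEBPB and TARS1 read higher on all 4 arrays with bFGF and SLC7A5 lower, with its highest array with bFGF at 3110 and its lowest without at 4017, whereas SLC3A2 has a single low array at 213.

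Of the 5 serine, glycine and one-carbon enzymes, SHMT2 was called in both bFGF comparisons, MTHFD2 in the first and on average, and PHGDH on average. PHGDH, PSAT1 and PSPH make serine from a glycolytic intermediate, SHMT2 cleaves serine to glycine in the mitochondrion and hands the one-carbon unit to folate, and MTHFD2 oxidises that unit. All 5 had values above 0 in both states of IL-11. SHMT2 read 4463 and 4911 in −bFGF, 5978 and 6114 in +bFGF, 4690 and 4536 in +IL-11, and 6107 and 5758 in +IL-11+bFGF. The lowest array with bFGF lay above the highest without. SHMT2 rose 1.29-fold in each state (0.37 ± 0.08, adjusted p = 0.0149, and 0.36 ± 0.08, adjusted p = 0.0188).

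MTHFD2 read 1603 and 1244 in −bFGF, 1992 and 1967 in +bFGF, 1635 and 1516 in +IL-11, and 2272 and 1844 in +IL-11+bFGF. The 4 arrays with bFGF again stood above the 4 without, with −bFGF replicate 2 the lowest. The rise without IL-11 was 1.40-fold (0.49 ± 0.14, adjusted p = 0.0412), and it was not called without −bFGF replicate 2 (log2 0.30, adjusted p = 0.223). With IL-11 the value was 0.38 ± 0.14 (adjusted p = 0.111). PHGDH read between 15139 and 16617 without bFGF and between 17827 and 18631 with it, and its averaged rise was small, 0.18 ± 0.05 (adjusted p = 0.0232). That rise was not called when no intensity trend was fitted. PSAT1 (0.04 ± 0.07) and PSPH (0.20 ± 0.13) were not called. PSPH read 219 on −bFGF replicate 2 and 314 to 384 on the other 7 arrays.

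The transsulfuration pair turns homocysteine into cysteine. CTH, its second enzyme, read 365 and 291 in −bFGF, 492 and 415 in +bFGF, 382 and 362 in +IL-11, and 483 and 422 in +IL-11+bFGF. No array with bFGF fell into the range of those without, and the averaged value was 0.37 ± 0.11 (adjusted p = 0.0267), with neither state called alone (adjusted p = 0.0633 and 0.288). By the methods' t-test the averaged difference of CTH was not called. CBS, the first enzyme, had 0.11 ± 0.08 (adjusted p = 0.353).

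ASNS, which makes asparagine and is among the most used readouts of ATF4, read 4937 and 4092 in −bFGF, 5463 and 5788 in +bFGF, 4846 and 4695 in +IL-11, and 6398 and 4725 in +IL-11+bFGF. The groups were apart without IL-11, whereas +IL-11+bFGF replicate 2 lay between the 2 +IL-11 arrays. ASNS was not called, at 0.32 ± 0.14 (adjusted p = 0.144) and 0.21 ± 0.14 (adjusted p = 0.400). A second, dimmer ASNS probe gave an averaged 0.51 ± 0.16, past the threshold when probes were tested (adjusted p = 0.0389), where the brighter gave 0.26 ± 0.10 (adjusted p = 0.0741). ALDH18A1, which starts proline synthesis, had an averaged 0.20 ± 0.07 (adjusted p = 0.0604).

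Of the 18 tested cytosolic synthetases, 4 were higher with bFGF on average (22.2%, against 13.4% of all genes), 0 were lower, and 15 had values above 0. The median was 0.09. With no intensity trend only TARS1 of the 18 kept its averaged call, and by the methods' t-test only AARS1 and TARS1 did. In the authors' normalised table all 4 kept it, and KARS1 and MARS1 were added. Without IL-11 limma called 0 of the 18, their values running from -0.17 to 0.33. At an unadjusted p under 0.05 limma found 6 of the 18, beside 2880 of all 9269 genes. The methods' t-test found 3 of the 18 and 1620 of all genes at that level. After adjustment it called 0 of the 18 but only 2 of all 9269 genes, so its 0 says little about the synthetases. With IL-11 limma called TARS1 alone. TARS1, the threonyl enzyme, read 1552 and 1662 in −bFGF, 1863 and 2093 in +bFGF, 1590 and 1801 in +IL-11, and 2562 and 2263 in +IL-11+bFGF. Its 2 highest arrays were those with both cytokines, and every array with bFGF exceeded every array without. TARS1 rose 1.42-fold with IL-11 present (0.51 ± 0.11, adjusted p = 0.0157), and the value without IL-11 was 0.30 ± 0.11 (adjusted p = 0.0927). These 2 effects were not shown to differ, since the difference of the bFGF effect was called for no gene.

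Among the 8 tested class II enzymes, to which TARS1 belongs, AARS1 (alanyl) and NARS1 (asparaginyl) also passed on average. With TARS1 this was 37.5% of the class, against 13.4% of all genes. AARS1 read 6543 to 7411 without bFGF and 7888 to 8320 with it (0.22 ± 0.06, adjusted p = 0.0176). NARS1 read 3499 to 3954 without and 3672 to 5056 with it, so its ranges overlapped (0.23 ± 0.07, adjusted p = 0.0399). Of the 10 class I enzymes only YARS1 (tyrosyl) passed on average, which is 10.0% against the same 13.4%. YARS1 read 3468 to 4134 without and 4207 to 4988 with bFGF (0.28 ± 0.08, adjusted p = 0.0282). The 2 classes were not tested against each other, and of these averaged calls only that of TARS1 held with no intensity trend.

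KARS1 (lysyl) and MARS1 (methionyl) were near the threshold, at 0.18 ± 0.07 (adjusted p = 0.0615) and 0.24 ± 0.08 (adjusted p = 0.0575). QARS1 (glutaminyl) had the lowest averaged value of the 18, -0.17 ± 0.06 (adjusted p = 0.0657), with 9967 to 11613 on the arrays without bFGF and 9147 to 9935 on those with it. HARS1 (-0.12) and RARS1 (-0.03) were the other 2 below 0. CARS1, EPRS1, FARSA, GARS1, IARS1, LARS1, SARS1, VARS1 and WARS1 lay between 0.01 and 0.11 and were not called. CARS1 read 72 to 92, close to background.

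The motif and the response were also set side by side. Of the 9 tested genes with TGATGNAA in their window, 3 were higher and 0 lower with bFGF on average, with a median of 0.23. Of the 20 with a window and no match, 4 were higher and 2 lower, with a median of 0.095. Among 197 other tested genes with the motif, 15.2% were higher and 22.3% lower, with a median of -0.0089, beside 13.2%, 14.1% and -0.011 over the 7673 other tested genes with a window. SHMT2 and YARS1 had no window, and MTHFD2 and CEBPB had a window with no match.

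TRIB3, a pseudokinase that is induced by ATF4 and CHOP and restrains them, was the only effector that could be tested. TRIB3 read 488 and 306 in −bFGF, 576 and 596 in +bFGF, 536 and 443 in +IL-11, and 757 and 383 in +IL-11+bFGF. The highest and the second lowest of the 8 arrays were the 2 of +IL-11+bFGF. TRIB3 was not called at 0.60 ± 0.30 (adjusted p = 0.199) and 0.14 ± 0.30 (adjusted p = 0.818), and without +IL-11+bFGF replicate 1 the second value was -0.35.

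The transporters SLC7A5 (LAT1) and SLC3A2 (4F2hc, CD98) form the heterodimer that brings leucine and other large neutral amino acids into the cell. SLC7A5 read 4212 and 4017 in −bFGF, 2703 and 3110 in +bFGF, 4408 and 4562 in +IL-11, and 3089 and 2849 in +IL-11+bFGF. All 4 arrays with bFGF were below all 4 without. SLC7A5 fell 1.42-fold without IL-11 (-0.50 ± 0.09, adjusted p = 0.00701) and 1.51-fold with it (-0.60 ± 0.09, adjusted p = 0.00353), and its averaged adjusted p of 0.000299 was the lowest of the 34. With median scaling the value without IL-11 was -0.41 (adjusted p = 0.054).

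SLC3A2 read 564 and 213 in −bFGF, 640 and 510 in +bFGF, 531 and 584 in +IL-11, and 596 and 507 in +IL-11+bFGF. A single array, −bFGF replicate 2, was far below the other 7, which overlapped. The log2 fold change without IL-11 was therefore wide, 0.72 ± 0.35 (adjusted p = 0.193). It was 0.02 without −bFGF replicate 2, and 1.42 and called (adjusted p = 0.00318) without −bFGF replicate 1. With IL-11 it was -0.02 ± 0.35.

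IL-11 alone was compared with no cytokine and with bFGF. Between +IL-11 and −bFGF limma called 0 of the 34 genes, as it called 0.0% of all genes. At an unadjusted p under 0.05 it found 0 of the 34 and 492 of all genes, and the methods' t-test found 0 and 377, with 0 called after adjustment. The median of the 34 was 0.05, and values ran from -0.24 to 0.68, the highest being SLC3A2. For 29 of the 34 the 95% interval lay within a 1.5-fold change either way. The exceptions were DDIT3, FARSA, PSPH, SLC3A2 and TRIB3. The interval for CEBPB was -0.37 to 0.26, for SHMT2 -0.20 to 0.16 and for SLC7A5 -0.08 to 0.33. Without −bFGF replicate 1, SLC3A2 was called higher with IL-11 (1.38, adjusted p = 0.0457).

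Against +bFGF, the +IL-11 arrays had 1 gene of the 34 higher, SLC7A5 (0.63 ± 0.09, adjusted p = 0.00262), and 2 lower, SHMT2 (-0.39 ± 0.08, adjusted p = 0.0123) and CEBPB (-0.65 ± 0.14, adjusted p = 0.0158). Among all genes 6.68% were higher and 6.53% lower. This comparison shares the +bFGF arrays with the first and the +IL-11 arrays with the second, so its 3 calls are not independent of theirs. Without +bFGF replicate 1 or +IL-11 replicate 2 only SLC7A5 was called, and without +bFGF replicate 2 only SLC7A5 and CEBPB.

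IL-11 added to bFGF gave 0 called of the 34 and 0.0% of all genes by limma, with 3 of the 34 and 161 of all genes at an unadjusted p under 0.05. The methods' t-test gave 0 and 379 at the same level and called 0. The 95% intervals of 30 of the 34 lay within 1.5-fold. The difference of the bFGF effect with and without IL-11 was likewise called for 0 of the 34 and 0.0% of all genes, with 1 of the 34 and 176 of all at an unadjusted p under 0.05, and 27 of its 34 intervals lay within 1.5-fold.

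The 2 arrays of a condition were not equally close. In +IL-11+bFGF, 31 of the 34 genes read lower on replicate 2 than on replicate 1, with a median gap of -0.19 on the log2 scale where the median of all genes was -0.01. TRIB3 had the widest gap there, -0.98, and ASNS (-0.44) and CEBPB (-0.41) went the same way. In −bFGF, 21 of 34 were lower on replicate 2 with a median of -0.06, and 3 genes, SLC3A2 (-1.40), TRIB3 (-0.67) and PSPH (-0.57), had a gap over 0.5, as did 7.45% of all genes. The medians in +bFGF and +IL-11 were 0.03 and 0.01. The genes of the response thus differed between replicates as a group in 1 condition, and what differed between those 2 arrays was not tested.

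The wider pathway was read from 8 related lists, in the averaged bFGF comparison, in which 13.4% of all genes were higher and 14.5% lower. These lists were chosen with earlier results of these data known. Their shares therefore describe the lists, and no excess over all genes was tested. Of 9 tested further ATF4 targets, 3 were higher (33.3%) and 2 lower (22.2%) with bFGF. GDF15, a secreted stress cytokine that also answers to p53, read 200 to 231 without bFGF and 609 to 813 with it (1.68 ± 0.11, adjusted p = 9.76e-06). XPOT, the tRNA exporter, had 0.72 ± 0.21 (adjusted p = 0.0300), and it shared the low reading of SLC3A2 on −bFGF replicate 2, 232 against 499 to 845 elsewhere. Without that array its value was 0.44 (adjusted p = 0.0347). PCK2, mitochondrial PEP carboxykinase, had 0.49 ± 0.10 (adjusted p = 0.00554).

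Another 2 stress genes fell. PPP1R15A (GADD34), the regulatory subunit that lets eIF2 be dephosphorylated, read 2027 to 2176 without bFGF and 1472 to 1597 with it (-0.45 ± 0.06, adjusted p = 0.000527). ATF3 fell by 0.30 on the log2 scale (SE 0.10, adjusted p = 0.0463). Of the 4 others tested here, CEBPG, DDIT4, STC2 and VLDLR, none was called, with values from -0.07 to 0.26. The median of the 9 was -0.02, against -0.01 for all genes.

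Of 11 tested genes for eIF2, its kinases and its exchange factor eIF2B, 4 were higher (36.4%, against 13.4% of all genes) and 0 lower (against 14.5%). They were EIF2S2, the beta subunit of eIF2 (0.60 ± 0.08, adjusted p = 0.000655), EIF2AK4, which is GCN2 (0.51 ± 0.09, adjusted p = 0.00322), EIF2AK2, which is PKR (0.47 ± 0.07, adjusted p = 0.00115), and EIF2B2 (0.41 ± 0.07, adjusted p = 0.00224). GCN2 read 389 to 423 without bFGF and 510 to 650 with it. The median of the 11 was 0.07.

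Of 8 tested further enzymes of serine and folate one-carbon metabolism, 6 were higher and 0 lower (75.0%, against 13.4% of all genes), with a median of 0.32. SHMT1, the cytosolic counterpart of SHMT2, had 0.40 ± 0.08 (adjusted p = 0.00434), MTHFD1L 0.35 ± 0.07 (adjusted p = 0.00444), AMT of the glycine cleavage system 0.34 ± 0.07 (adjusted p = 0.00441) and GART of purine synthesis 0.34 ± 0.07 (adjusted p = 0.00748). With SHMT2, MTHFD2 and PHGDH, which were already counted above, this made 9 of 13 tested genes of the serine and one-carbon steps higher and 0 lower.

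Of 13 tested mitochondrial synthetases, 3 were higher (EARS2, LARS2 and NARS2, from 0.26 to 0.37), which is 23.1% against 13.4% of all genes, and 0 lower, with a median of 0.07 beside 0.09 for the cytosolic enzymes. Of 11 ER chaperones and related genes of the ATF6 and XBP1 arms, which mark protein folding stress and not amino acid shortage, 3 were higher (EDEM1, PDIA4 and HSP90B1), which is 27.3% against the same 13.4%, and 0 lower. HSPA5 (BiP), the usual marker of that stress, had -0.04 ± 0.09 (adjusted p = 0.778). Of the scaffolds of the multisynthetase complex 0 could be tested.

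Among 10 tested further amino acid transporters, 4 were higher (40.0%, against 13.4% of all genes) and 3 lower (30.0%, against 14.5%), with a median of 0.01. SLC7A8 (LAT2), which shares its partner with SLC7A5, had 0.64 ± 0.13 (adjusted p = 0.00655), opposite in sign to SLC7A5, and SLC7A1 (CAT1), for arginine and lysine, had 0.49 ± 0.08 (adjusted p = 0.00147). SLC6A9, for glycine, fell by 0.60 on the log2 scale (SE 0.12, adjusted p = 0.00426). SLC1A3 was called lower too, reading 161 to 251 without bFGF and 105 to 174 with it, so its ranges overlapped. SLC1A4, the third called lower, had the lowest value of the list, -0.66, but was detected on 2 arrays only. It read 77 and 78 in +IL-11, 67 and 56 in −bFGF and 39 to 48 with bFGF. It met the filter through a condition without bFGF, so the filter itself favoured its direction. MYC, a factor known to act on many of these genes, read 147 to 179 without bFGF and 244 to 332 with it (0.79 ± 0.10, adjusted p = 0.000501). MYCN (-0.17 ± 0.09) and MAX (0.02 ± 0.13) were not called. Any part of MYC in the changes above was not tested.

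**Figure D4:**
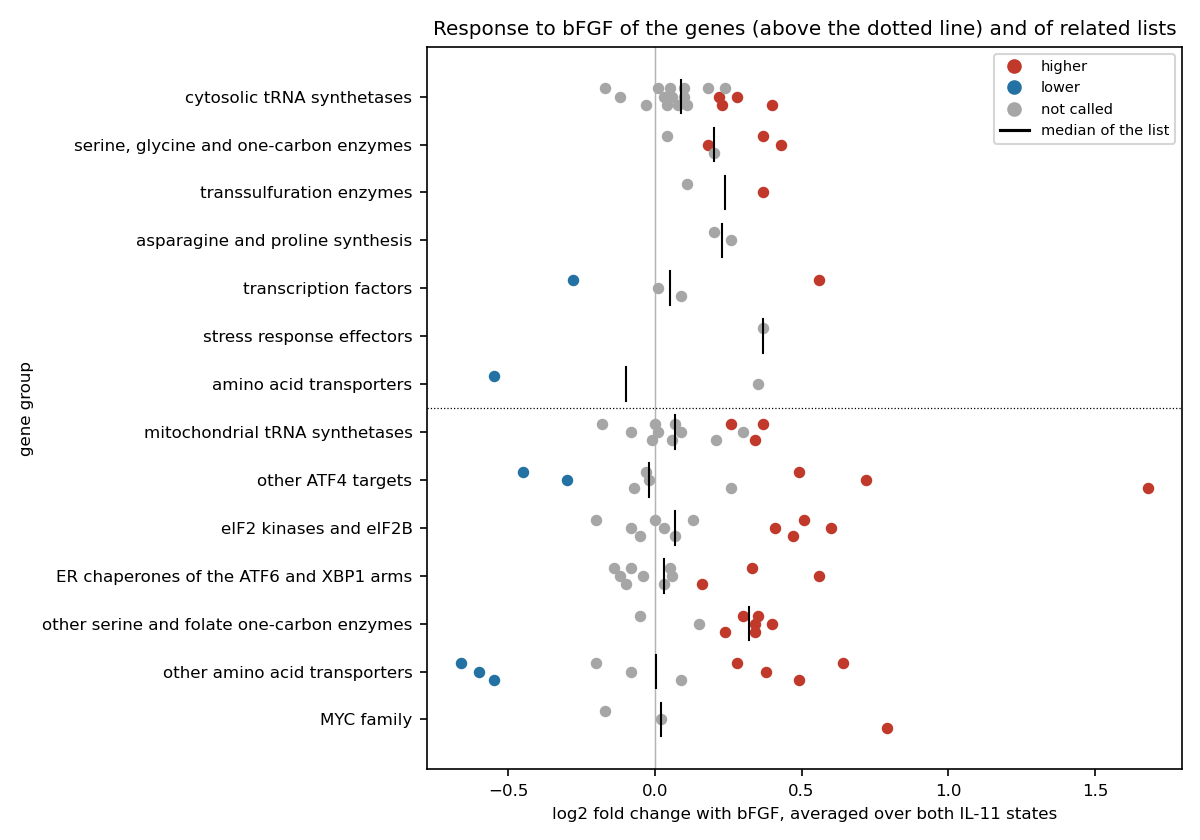
Averaged bFGF log2 fold change of each tested gene, by group; red and blue points are called higher and lower at an adjusted p under 0.05, grey points are not called, and black bars are group medians. Among groups with more than 1 tested gene, the further serine and folate enzymes lie furthest to the right, with a median of 0.32. The stress response effectors are TRIB3 alone, at 0.37. The synthetase lists sit at 0.09 and 0.07, and the ATF4 targets spread from -0.45 to 1.68.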

How the data were processed

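The authors deposited, for 24526 probes, the intensity of each probe before normalisation on a linear scale, with a detection p-value per array by the authors against negative control beads. They also deposited a table of normalised intensity; rank invariant normalisation in BeadStudio is named in the methods, and GenomeStudio in the submitters' processing notes. Probes were named from the platform annotation (21834 have 1 symbol, 2692 are unnamed here), updated through GRCh38.p14 gene identifiers.

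With limma 3.58.1 in R 4.3.3, intensities were background-corrected (normexp, offset 16, negative controls inferred from the detection p-values), quantile normalised and taken to log2. Probes with a detection p-value under 0.01 on both arrays of a condition were kept, and a gene took its probe with the highest mean. All 8 arrays entered 1 fit with an intensity trend (4 residual and 5.69 prior degrees of freedom), 7 contrasts were tested, and Benjamini-Hochberg adjustment ran over 9269 genes, with calls at 0.05. Intervals used the fit's degrees of freedom. The procedure was tested on simulated data. The number of arrays limits the precision. No slide or scan date is given in the sources used here, so no batch was tested.

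The genes and lists were chosen with earlier results of these data known. Named with the value on each array were genes called in either bFGF comparison, and ATF4, DDIT3, ASNS, CHAC1, TRIB3, SESN2 and SLC7A11 (by detection alone where not tested), with up to 4 called genes from each related list. ATF5, CTH and SLC3A2 were added with their array values after these had been seen. More called genes than this were named among the further ATF4 targets and the further amino acid transporters. Alternatives were the authors' normalised table, no background correction, median scaling, other probe filters and summaries, no trend, a replicate block, a fit of the compared arrays alone, the methods' t-test, and each array left out.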

Additional observations from a re-analysis of the deposited data

How the results depend on the processing

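The number of the 34 genes called between +bFGF and −bFGF, 4 by limma, was 7 in the authors' normalised table and 0 by the methods' t-test, and ranged from 0 to 7 with each array left out. Between +IL-11+bFGF and +IL-11 it was 4, with 2 when no intensity trend was fitted, 0 by the methods' t-test and 1 to 4 with each array left out. Between +IL-11 and +bFGF the 3 calls became 0 by the methods' t-test and 1 to 3 with an array left out, and between +IL-11 and −bFGF the 0 became at most 1. The averaged bFGF count of 11 was 15 in the authors' normalised table (ALDH18A1, ASNS, KARS1 and MARS1 added), 7 with no trend, 7 by the methods' t-test and 6 to 13 with an array left out. The cause was not tested, beyond the fewer arrays in each such fit, whose lone array is assumed to vary like the others. Over all 9269 genes the methods' t-test called 2 between +bFGF and −bFGF. It called 0 between +IL-11+bFGF and +IL-11, and 0 between +IL-11 and +bFGF. Its counts of 0 in those comparisons therefore say little about these genes.

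Replicate numbers are shared across conditions without a stated pairing, and same-numbered arrays deviated together with a correlation of -0.0562 to 0.195. With the replicate number as a block, 5 of the 34 were called in each bFGF comparison (CTH added in the first, MTHFD2 in the second) and 13 on average (ASNS and MARS1 added).

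Among the values recomputed, signs turned only for those that were not called, each when an array was left out. The range was -0.13 to 0.16 for ATF4 and -0.20 to 0.16 for DDIT3 without IL-11, and -0.052 to 0.12 for DDIT3, -0.0139 to 0.42 for ASNS and -0.35 to 0.63 for TRIB3 with IL-11. Recomputation under the settings covered 29 single-gene values, chosen mostly because they were called, so gains by other genes are not counted among them. Of the recomputed values 428 kept their sign and side of the threshold, 74 lost their call, 1 gained it and 8 turned. The median log2 fold change of all genes stayed within 0.032 of 0 in every comparison and setting run. With 2 arrays per condition, 1.5-fold changes were often missed in the simulated data, where fewer genes changed than were called here. The dim genes FARSB, CHAC1, SESN2, SLC7A11 and PYCR1 read near background.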
